A study of Homo sapiens with 4 samples.

Results

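The ZIC genes are the subject here: ZIC1 and ZIC4 on human chromosome 3, and ZIC2 and ZIC5 on chromosome 13. They were examined through the EZH2 peaks that overlap 2 fixed intervals of the hg19 genome by at least 1 base. The ZIC1-ZIC4 interval ran from 147090001 to 147160000 on chromosome 3 (70000 bases) and the ZIC2-ZIC5 interval from 100600001 to 100660000 on chromosome 13 (60000 bases). The intervals are fixed by position and not by peak values, though the genes were chosen with earlier results of these data known. They held 3 of the 35016 peaks called in H3.1-K27M cells and 5 of the 31077 called in H3.1-WT cells, or 8 of 66093 peaks in all. Each interval was set against the 100 kb on either side of it.

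The study used HEK293 cells, a long-established line from human embryonic kidney. They had been infected with lentivirus, selected with G418 and induced with doxycycline at 1 µg/ml, and the genotype labels read H3.1-K27M for the mutant cells and H3.1-WT for the others. Both groups thus received the vector, the selection and the inducer, and both keep the histone genes of the parent line, so the mutant histone was present beside normal H3. The promoter of the vector and whether the cells were a clone or a pool are not given in the sources used here. EZH2 was mapped by CUT&RUN on 200000 cells per reaction, a method in which antibody-tethered MNase cuts the DNA around the bound protein and the freed fragments are sequenced. Of the 4 libraries, each genotype had 1 for EZH2 and 1 for the anti-rabbit HRP secondary antibody alone, which served as the control of the peak list. Nothing was replicated, so values of the genotypes are set side by side without a test. Read counts are not part of the lists, and depth is therefore unknown.

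ZIC proteins are transcription factors with a tandem array of zinc fingers. They act in the dorsal neural tube, the neural crest and the developing cerebellum, among other tissues. Their expression in the cells studied was not analysed here. ZIC2 is a gene of holoprosencephaly, a failure of the forebrain to divide, loss of ZIC1 and ZIC4 has been linked to the Dandy-Walker malformation of the cerebellum, and Zic5 serves neural crest formation in mouse. EZH2 is the methyltransferase of the Polycomb complex PRC2 and acts on histone H3 at lysine 27, and developmental regulators with CpG-rich promoters are its textbook targets in cells that do not use them. In K27M that lysine is replaced by methionine, and the mutant histone is known to interfere with PRC2.

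In RefSeq annotation of GRCh38 both pairs stand head to head, with ZIC4 and ZIC5 on the minus strand and ZIC1 and ZIC2 on the plus strand, transcribed away from each other. The outermost annotated starts of ZIC1 and ZIC4 lie 2822 bases apart in that build, and those of ZIC2 and ZIC5 9875 bases apart. The promoters are shown because CpG density is the sequence property with which Polycomb targets are usually described. Each run below is the 250 bases before the outermost start, read 5′ to 3′ on the gene's strand from RefSeq (GRCh38.p14), with every CpG in capitals.
ZIC1 (chr3:147409115-147409364, plus strand): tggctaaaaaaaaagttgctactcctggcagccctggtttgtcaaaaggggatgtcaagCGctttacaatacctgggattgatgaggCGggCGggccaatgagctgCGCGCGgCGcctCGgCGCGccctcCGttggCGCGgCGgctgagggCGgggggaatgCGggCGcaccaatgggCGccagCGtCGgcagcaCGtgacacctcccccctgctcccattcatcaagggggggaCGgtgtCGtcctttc
ZIC4 (chr3:147406544-147406793, minus strand): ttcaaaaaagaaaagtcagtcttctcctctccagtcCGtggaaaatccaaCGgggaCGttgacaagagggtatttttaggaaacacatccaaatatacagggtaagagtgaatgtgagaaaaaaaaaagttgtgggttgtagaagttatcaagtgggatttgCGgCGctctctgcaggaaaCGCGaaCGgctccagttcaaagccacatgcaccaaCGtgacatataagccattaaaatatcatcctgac
ZIC2 (chr13:99981534-99981783, plus strand): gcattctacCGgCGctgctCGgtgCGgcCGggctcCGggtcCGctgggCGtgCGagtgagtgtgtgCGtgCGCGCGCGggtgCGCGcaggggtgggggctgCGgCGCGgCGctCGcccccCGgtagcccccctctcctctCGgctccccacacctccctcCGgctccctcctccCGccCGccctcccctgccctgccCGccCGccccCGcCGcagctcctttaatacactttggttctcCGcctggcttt
ZIC5 (chr13:99971910-99972159, minus strand): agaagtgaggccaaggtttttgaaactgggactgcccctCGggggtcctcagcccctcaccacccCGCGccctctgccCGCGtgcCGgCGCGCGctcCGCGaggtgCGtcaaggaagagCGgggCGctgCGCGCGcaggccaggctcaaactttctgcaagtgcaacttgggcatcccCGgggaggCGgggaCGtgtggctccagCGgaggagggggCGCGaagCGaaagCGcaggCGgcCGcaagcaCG

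The ZIC2 and ZIC5 promoters held 31 and 28 CpGs, and the ZIC1 promoter 23, against a median of 11 over 35114 RefSeq promoters of the same length. At least 31 CpGs stood in 10.9% of all promoters, at least 28 in 15.9% and at least 23 in 25.8%. CpG reads the same on both strands, so the motif CG was counted once. ZIC4 was the least CpG-rich member at its outermost start, with 9 CpGs, a number that 54.1% of promoters reach. Its 3 other annotated starts had 16, 7 and 2 CpGs. The 2 other starts of ZIC5 had 21 and 12. Gene starts are known here in GRCh38 and the peaks are in hg19, and positions were not converted between builds. Peaks are therefore placed within the intervals and are not assigned to a promoter or a gene of the pair.

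Both genotypes had EZH2 peaks at the ZIC1-ZIC4 pair, while the ZIC2-ZIC5 pair had peaks in H3.1-WT only. At ZIC1-ZIC4, peaks covered 4293 bases in H3.1-K27M cells and 4658 bases in H3.1-WT cells. At ZIC2-ZIC5 they covered 0 bases in H3.1-K27M cells and 4636 bases in H3.1-WT cells. The H3.1-WT list thus covered the 2 pairs by nearly equal lengths, and the H3.1-K27M list covered the chromosome 3 pair alone. These values describe 2 libraries, and a region without a peak is one in which the authors' caller passed none, not one shown to lack EZH2.

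**Figure D1:**
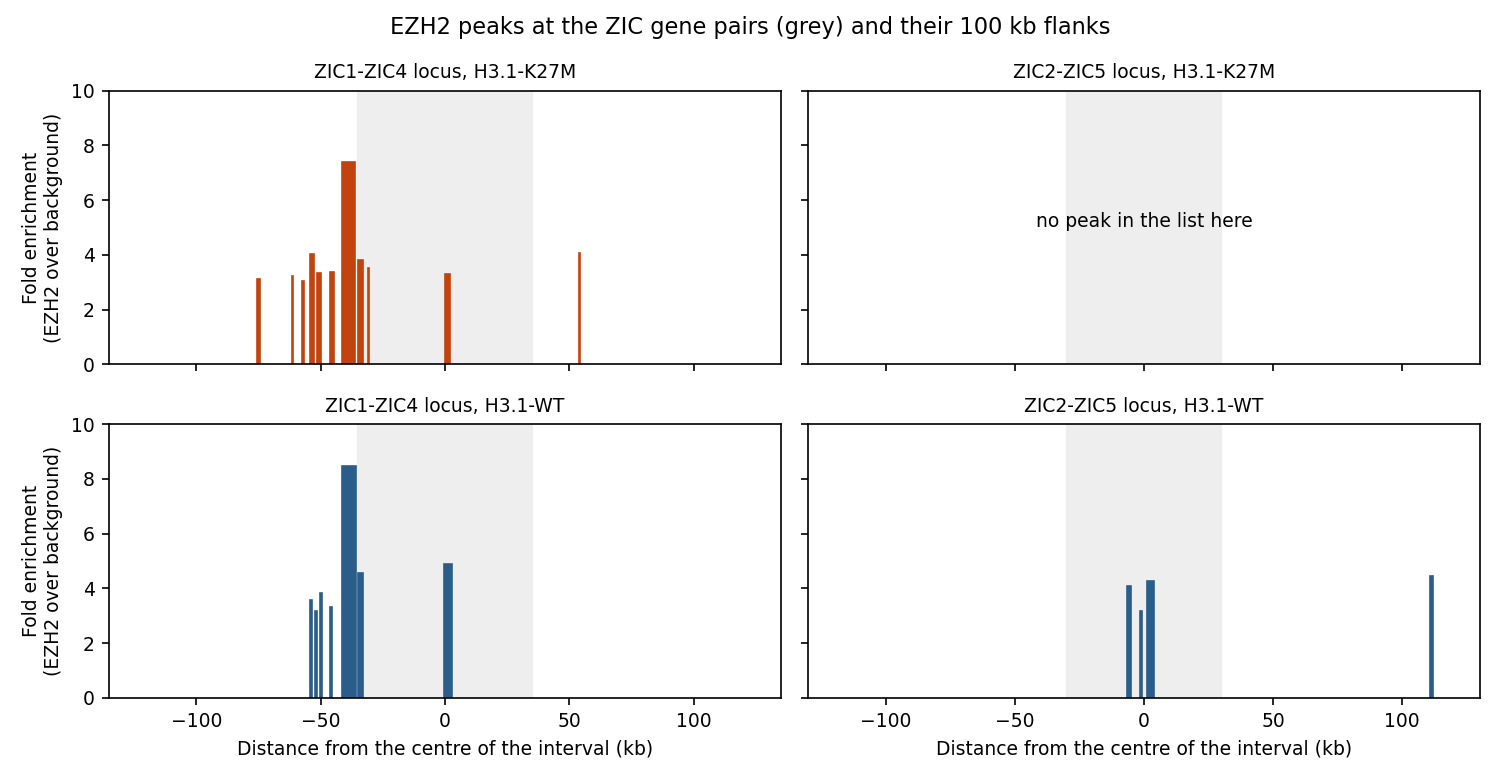
EZH2 peaks at the ZIC1-ZIC4 (left) and ZIC2-ZIC5 (right) intervals, shaded grey, and their 100 kb flanks, in H3.1-K27M cells (top) and H3.1-WT (bottom). Horizontal position is the distance in kb from the centre of the interval, and bar height is the fold enrichment of the peak, a linear ratio. At ZIC1-ZIC4 both genotypes show the tallest peak just below the interval, with 7.37 in H3.1-K27M cells and 8.48 in H3.1-WT cells, and a peak at the centre. At ZIC2-ZIC5 the H3.1-K27M panel is empty.

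The ZIC1-ZIC4 interval held 3 peaks in H3.1-K27M cells and 2 in H3.1-WT cells. Each peak carries a fold enrichment, the authors' linear ratio of EZH2 signal over background, and a −log10 q value, where a larger number is a stronger call and both lists stop near 1. Of autosomal windows of 70 kb, 8.29% held at least 3 peaks in H3.1-K27M cells, and 17.0% held at least 2 in H3.1-WT cells.

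The peak at the middle of the ZIC1-ZIC4 interval was called in both genotypes. In H3.1-K27M cells it ran from 147125040 to 147127101 (2062 bases), with a fold enrichment of 3.30 and a −log10 q of 1.44. In H3.1-WT cells it ran from 147124771 to 147127664 (2894 bases), with a fold enrichment of 4.87 and a −log10 q of 4.62. The H3.1-K27M call lay wholly inside the H3.1-WT call and left 28.7% of the H3.1-WT bases uncovered. The H3.1-K27M call was weak in its own list, where 61.9% of peaks were at least as strong, while the H3.1-WT call was among the strongest 7.91% of its list. Fold enrichments and q values depend on the depth and scaling of each library, so these values are no measure of how much EZH2 was bound.

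At the lower edge of the interval another peak was shared. It spanned 147090238 to 147092169 in H3.1-K27M cells (1932 bases, fold enrichment 3.81, −log10 q 2.45) and 147090146 to 147091909 in H3.1-WT cells (1764 bases, fold enrichment 4.57, −log10 q 3.91), with 1672 bases in common. In H3.1-K27M cells it was the strongest peak of the interval, and in H3.1-WT cells the central peak was. The remaining H3.1-K27M peak was narrow (147094194 to 147094492, 299 bases, fold enrichment 3.52, −log10 q 1.69), and no H3.1-WT peak overlapped it.

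At ZIC1-ZIC4 the lists shared most of the covered length over all peaks, but not over stronger ones. Of the 4658 bases covered in H3.1-WT cells, 3734 were covered in H3.1-K27M cells as well (80.2%), and these were 87.0% of the bases covered in H3.1-K27M cells. The share of H3.1-WT bases was 35.9% under a −log10 q minimum of 2 and also with the 15538 strongest peaks of each list, since the central H3.1-K27M peak then drops out. Both H3.1-WT peaks were overlapped, against 34.7% of all autosomal H3.1-WT peaks and 51.4% of those with a −log10 q from 3 to 5, the range in which both fall. Of the 3 H3.1-K27M peaks 2 were overlapped, against 35.3% of all autosomal H3.1-K27M peaks, 53.5% of those from 2 to 3 and 25.9% of those from 1 to 2. The ratio of covered length, H3.1-K27M over H3.1-WT, was 0.922 as called. It turned to 1.36 when peaks within 5000 bases were joined, which closes the space between the edge peak and the narrow peak in H3.1-K27M cells, and it was 0.415 under the minimum of 2, which leaves only the edge peak in the H3.1-K27M list.

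The strongest EZH2 peak of the neighbourhood lay just outside the interval. It spanned 147083479 to 147088856 in H3.1-K27M cells (5378 bases, fold enrichment 7.37, −log10 q 10.2) and 147083419 to 147089079 in H3.1-WT cells (5661 bases, fold enrichment 8.48, −log10 q 15.9). It ended 1144 bases below the interval in H3.1-K27M cells and 921 bases below it in H3.1-WT cells, whereas the shared edge peak began 237 bases inside it in the H3.1-K27M list and 145 bases inside it in the H3.1-WT list. The whole H3.1-K27M call was contained in the H3.1-WT call, of which it left 283 bases uncovered. It ranked 138 by q of 35016 peaks in H3.1-K27M cells and 343 of 31077 in H3.1-WT cells, ranks that come from lists of unequal length and show no change. Peaks reaching a −log10 q of 10 made up 0.408% of the H3.1-K27M list and 2.37% of the H3.1-WT list. Of such autosomal H3.1-WT peaks 98.3% were overlapped in H3.1-K27M cells.

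Below this peak, on the ZIC4 side in gene order, smaller peaks continued. The lower flank of ZIC1-ZIC4 held 7 peaks in H3.1-K27M cells and 5 in H3.1-WT cells, of which 4 in each list overlapped a peak of the other. Over all autosomal peaks, 35.3% were overlapped in the H3.1-K27M list and 34.7% in the H3.1-WT list. The 4 include the strong peak in each list, and 98.3% of autosomal H3.1-WT peaks reaching a −log10 q of 10 were overlapped. From 2 to 3, 53.5% of H3.1-K27M peaks and 36.5% of H3.1-WT peaks were overlapped, and from 1 to 2, 25.9% and 24.5%. Whether the flank departs from these shares was not tested. Leaving out the strongest, the −log10 q of the flank peaks ran from 1.19 to 2.56 in H3.1-K27M cells and from 1.37 to 2.43 in H3.1-WT cells. After the strongest peak, the flank's highest fold enrichment was 4.01 in H3.1-K27M cells (147070633 to 147072198, 1566 bases) and 3.83 in H3.1-WT cells (147074895 to 147075530, 636 bases). The H3.1-K27M call overlapped an H3.1-WT call by 759 bases, and the H3.1-WT call overlapped an H3.1-K27M call by 239. The 3 peaks farthest below the interval, from 147049306 to 147068524, were called in H3.1-K27M alone, with fold enrichments of 3.11, 3.22 and 3.04. Their −log10 q values were 1.19, 1.28 and 1.21. Of autosomal H3.1-K27M peaks from 1 to 2, 25.9% were overlapped, so most peaks this weak had no H3.1-WT counterpart.

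The upper flank, on the ZIC1 side, held few peaks. It held a single H3.1-K27M peak from 147178907 to 147179271 (365 bases, fold enrichment 4.07, −log10 q 2.57) and none in H3.1-WT cells, in which the next peak lay 736058 bases above the interval. The EZH2 calls at this pair were thus one-sided in both genotypes.

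By covered length, the ZIC1-ZIC4 interval as drawn did not stand above its flanks in H3.1-K27M cells. Peaks covered 61.3 bases per kb of the interval and 67.0 per kb of the flanks in H3.1-K27M cells, a quotient of 0.915. In H3.1-WT cells they covered 66.5 bases per kb of the interval and 43.6 per kb of the flanks, a quotient of 1.52. Both quotients depend on the lower edge, because the strong peak just outside it counts to the flanks. With that edge moved down by 10 kb, covered length inside rose from 4293 to 10084 bases in H3.1-K27M cells. In H3.1-WT cells it rose from 4658 to 10319 bases, and the flanks lost the strong peak in both lists. The alternative was chosen after seeing the data. The lower flank alone had 130.4 bases per kb in H3.1-K27M cells and 87.3 in H3.1-WT cells, the densest of the regions measured here. Flank coverage was 1.54 times as long in H3.1-K27M cells as in H3.1-WT cells over all peaks, but shorter at a −log10 q of at least 5, where 5378 bases in H3.1-K27M cells and 5661 bases in H3.1-WT cells remain, those of the single strong peak. Autosomes as a whole had 12.003 bases per kb in H3.1-K27M cells and 11.5 in H3.1-WT cells. The pair and its lower flank were thus covered more densely than the autosomal mean in both lists. That mean takes in many windows without peaks, since only 29.6% of autosomal windows of 60 kb held a peak in H3.1-K27M cells and 38.4% in H3.1-WT cells. The share of windows covered as densely was not computed.

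**Figure D2:**
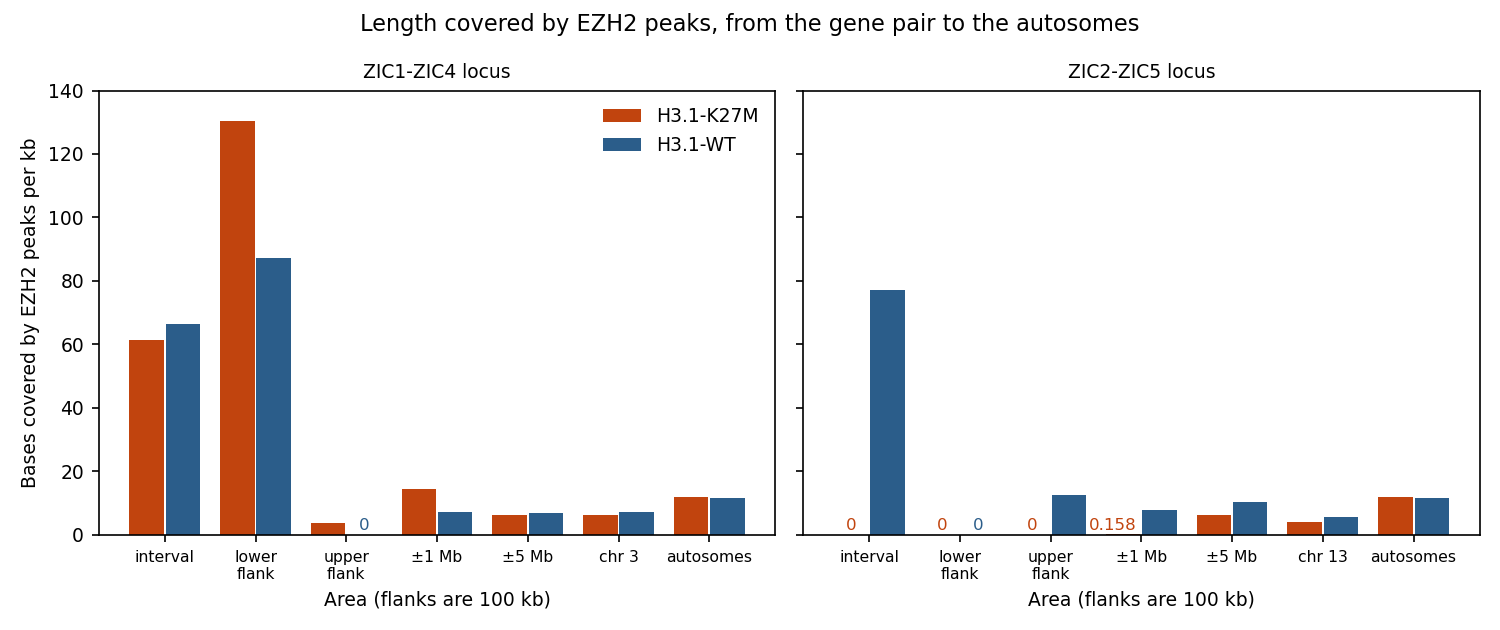
Bases covered by EZH2 peaks per kb, in H3.1-K27M cells (left bar of each pair) and H3.1-WT (right bar), for the ZIC1-ZIC4 and ZIC2-ZIC5 intervals, their 100 kb flanks, 1 Mb and 5 Mb on either side with the interval included, the chromosome and all autosomes. Bars under 1 base per kb carry their value. The ZIC1-ZIC4 lower flank is the densest region, and the ZIC2-ZIC5 interval stands at 0 bases per kb in H3.1-K27M cells and 77.3 in H3.1-WT cells.

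The ZIC2-ZIC5 interval held 0 peaks in H3.1-K27M cells and 3 in H3.1-WT cells. The widest H3.1-WT peak spanned 100631186 to 100633780 (2595 bases) with a fold enrichment of 4.27 and a −log10 q of 3.31. The next lay from 100623608 to 100624907 (1300 bases, fold enrichment 4.07, −log10 q 2.91). Between them a weak peak spanned 100628597 to 100629337 (741 bases, fold enrichment 3.17, −log10 q 1.32). All 3 stood within a span of 10173 bases around the centre of the interval. They were no exceptional calls in their list, where 15.5%, 20.2% and 82.1% of peaks were at least as strong.

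Of autosomal windows of 60 kb, 29.6% held a peak in H3.1-K27M cells and 38.4% in H3.1-WT cells. At least 3 H3.1-WT peaks stood in 5.21% of them. Of those windows, 398 of 2502 held no H3.1-K27M peak (15.9%). Of autosomal H3.1-WT peaks, the other list overlapped 24.5% of those with a −log10 q from 1 to 2, 36.5% of those from 2 to 3 and, as above, 51.4% of those from 3 to 5. Peaks as strong as those at ZIC2-ZIC5 were therefore often without an H3.1-K27M counterpart elsewhere.

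The flanks of ZIC2-ZIC5 were also nearly bare. The lower flank, on the ZIC5 side, had 0 peaks in both genotypes. The upper flank, on the ZIC2 side, had 0 peaks in H3.1-K27M cells and 1 in H3.1-WT cells, from 100740803 to 100742049 (1247 bases, fold enrichment 4.46, −log10 q 3.70). In H3.1-WT cells the interval was covered at 77.3 bases per kb and the flanks at 6.24, a quotient of 12.4. The flank value rests on that single peak, whose −log10 q was above those of the 3 interval peaks. In H3.1-K27M cells no such quotient exists.

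The absence of H3.1-K27M calls reached well beyond the pair. The nearest H3.1-K27M peaks lay 291500 bases below and 1408860 bases above the interval, at the ends of a stretch of 1760360 bases without a peak. In the same stretch H3.1-WT had 12 peaks covering 13490 bases, of which 6 reached a −log10 q of 2 and 0 reached 5. The strongest of these 12 lay outside the pair and its flanks, from 101325705 to 101328144 (fold enrichment 4.73, −log10 q 4.18). With 1 Mb on either side, the ZIC2-ZIC5 neighbourhood held 1 peak in H3.1-K27M cells and 16 in H3.1-WT cells. That is a ratio of 0.0625. Under a −log10 q minimum of 2, 0 of these remain in the H3.1-K27M list and 7 in the H3.1-WT list. With 5 Mb on either side there were 45 peaks in the H3.1-K27M list and 85 in the H3.1-WT list, a ratio of 0.529. The whole of chromosome 13 had 425 H3.1-K27M peaks and 576 H3.1-WT peaks, a ratio of 0.738, and over all autosomes the ratio was 0.976. The ratio was thus lower the closer the measure came to ZIC2-ZIC5, and the missing calls were not limited to the gene pair.

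Autosomal windows as long as the ZIC2-ZIC5 neighbourhood of 1 Mb on either side, 2060 kb, give the background of these numbers. In the H3.1-WT list 829 of 1386 such windows held at least 16 peaks (59.8%), and in the H3.1-K27M list 9.45% held at most 1. Of the 829 windows, 1 held at most 1 H3.1-K27M peak (0.121%). That window, on chromosome 13 from 98880001 to 100940000, contains the ZIC2-ZIC5 interval itself. Both limits are the neighbourhood's own counts, so this share counts the locus against itself and is no background rate. At most 2 H3.1-K27M peaks were found in 8 of the 829 (0.965%), that window included, with the others on chromosomes 2, 4, 5, 7, 17 and 21. Stretches of at least 1760360 bases between neighbouring peaks numbered 93 on the autosomes in the H3.1-K27M list, or 9.78% of their length, and 21 in the H3.1-WT list, or 3.91%, with assembly gaps included. The windows were laid after the neighbourhood's own numbers had been seen.

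The neighbourhood of ZIC1-ZIC4 went the other way. With 1 Mb on either side it held 21 peaks in H3.1-K27M cells and 8 in H3.1-WT cells, a ratio of 2.63. Under a −log10 q minimum of 2 it held 5 in each list, so the excess consisted of weaker H3.1-K27M calls. With 5 Mb on either side it held 49 H3.1-K27M peaks and 61 H3.1-WT peaks, a ratio of 0.803, and chromosome 3 held 1136 H3.1-K27M peaks and 1306 H3.1-WT peaks, a ratio of 0.870. Of the 8 H3.1-WT peaks within 1 Mb, 7 lay in the interval or the lower flank. At least 21 peaks stood in 29.8% of autosomal windows of 2070 kb in the H3.1-K27M list, and at least 8 in 86.8% in the H3.1-WT list. A ratio at least as high as 2.63 occurred in 4.28% of the 1307 windows with an H3.1-WT peak. These limits, too, are the neighbourhood's own values, taken after they were seen. The 1307 windows were also not matched to it in their number of H3.1-WT peaks. The 4.28% is therefore no measure of how rare the neighbourhood is.

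The pairs can be set side by side in each list. In H3.1-K27M cells, ZIC1-ZIC4 had 61.3 covered bases per kb and ZIC2-ZIC5 had 0. In H3.1-WT cells ZIC1-ZIC4 had 66.5 and ZIC2-ZIC5 had 77.3. Peaks at ZIC1-ZIC4 in H3.1-WT cells had −log10 q values of 3.91 and 4.62, and those at ZIC2-ZIC5 had 3.31, 2.91 and 1.32. These are 2 and 3 peaks of a single library, and a difference in strength between the pairs was not tested. At neither pair did a peak inside the interval reach a −log10 q of 5 in either genotype, a strength that 1.87% of H3.1-K27M peaks and 6.78% of H3.1-WT peaks reached.

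**Figure D3:**
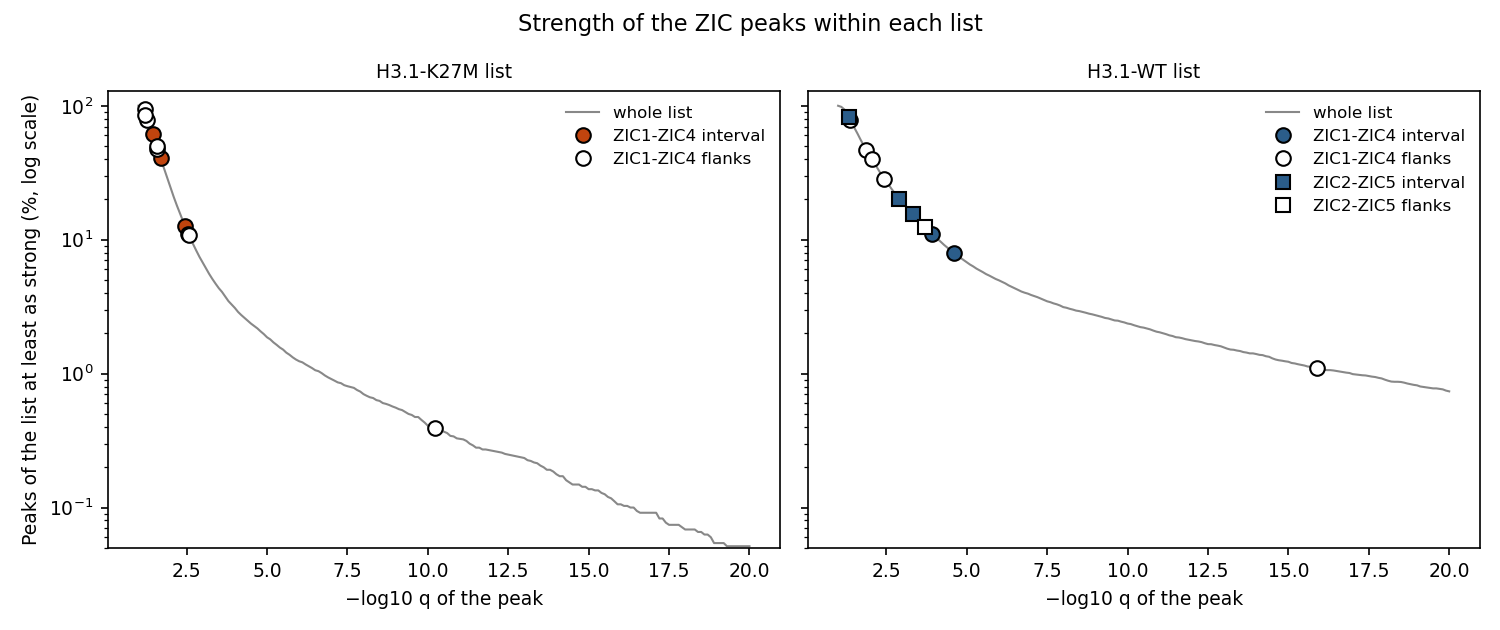
Strength of each peak at the ZIC intervals (filled) and flanks (open) within its list, H3.1-K27M on the left and H3.1-WT on the right. The horizontal axis is the −log10 q of the peak, and the vertical axis, on a log scale, is the percentage of peaks in that list at least as strong, with the whole list as a grey line. Peaks inside the intervals lie under 5 in both panels, and the flank peak beside ZIC1-ZIC4 stands apart at 10.2 in H3.1-K27M cells and 15.9 in H3.1-WT cells.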

How the data were processed

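The authors deposited a list of broad peaks for each genotype, and the peak names give the EZH2 and the HRP library behind it, so replicates were not pooled. Titles of the H3.1-K27M libraries read H31, and their genotype label was used. Per the submitters' processing notes the build was hg19, and MACS2, Bowtie2 (2.3.5.1), cutadapt, deepTools and Picard were used, with no roles stated. Each deposited peak has a fold enrichment (a linear ratio), a q value and a p-value, both as −log10, and a deposited score that was not used. Peak number and strength depend on depth and scaling, neither of which is known here, and repeats were not filtered.

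Peaks were counted to an interval from 1 shared base, covered length was clipped at its ends, and positions are 1-based. Windows tiled the autosomes from their first base, with chromosome ends from circlize 0.4.16. Overlap was tested on 20000 simulated sites, with 0 wrong calls, and against bedtools 2.31.1, with 0 disagreements. Scripts ran in Python 3.11.15 with pandas 2.3.3. All 4 members matched RefSeq promoters. Every interval peak is named, and per flank side the 2 peaks with the highest fold enrichment. The 3 flank peaks farthest from ZIC1-ZIC4, the windows and the wider neighbourhoods were chosen after their values were seen. Members and lists were chosen with earlier results of these data known.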

Additional observations from a re-analysis of the deposited data

How the results depend on the processing

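Alternatives were run for 10 results, and 38 of 54 values stayed within 1.5 times the value as called (numbers of peaks, and ratios that stayed on the same side of 1) or within its Wilson interval (shares). That interval takes each covered base as a separate trial. Neighbouring bases belong to the same peaks, so it is too narrow and serves only as a fixed tolerance. The 38 include the values at ZIC2-ZIC5 that are 0 in the H3.1-K27M list. Those could not change, since the alternatives remove or join peaks or move an edge by less than the distance to the nearest peak. The count of 38 is therefore no measure of how stable the results are. At ZIC1-ZIC4 the ratio of covered length, 0.922, was 0.415 under a −log10 q minimum of 2, 0.479 with the 15538 strongest peaks of each list, and reversed to 1.36 with peaks within 5000 bases joined. The share of H3.1-WT bases also covered in the H3.1-K27M list, 80.2%, was 35.9% at a minimum of 2 and 35.9% with equal list lengths, because the central H3.1-K27M peak drops out. It was 82.7% with peaks joined and 88.3% with the lower edge moved down by 10 kb to take in the strong flank peak, an alternative chosen after seeing the data. The flank ratio, 1.54, was 1.01 at a minimum of 2 and reversed to 0.950 at 5 and to 0.912 with equal list lengths, since weak H3.1-K27M peaks drop out. The 3 H3.1-K27M peaks at ZIC1-ZIC4 became 1 at a minimum of 2, 0 at 5 and 5 with the edge moved. The 2 H3.1-WT peaks there became 0 at 5. The 3 H3.1-WT peaks at ZIC2-ZIC5 became 0 at 5 and 1 with peaks joined. Ratios and shares at a minimum of 5 inside the intervals, and the ZIC2-ZIC5 flank ratio at 5 or with flanks of 50 kb, have no peaks to compute from. No paired analysis was possible because the groups hold single libraries. Depth, which is unknown, sets how many weak peaks a list can hold.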
